A study of Mus musculus with 20 samples.

Results

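The genes described here are the enzymes, transporters and regulatory subunits that carry glucose and fructose through glycolysis, gluconeogenesis, glycogen and the pentose phosphate pathway in the liver. They were chosen by name from a list of 38 symbols, and a gene was kept if it reached a CPM of 2, the count scaled to library size, in at least 3 mice. The symbols matched 39 genes of the 54532 in the table, because *Aldoa* named 2 identifiers. The second *Aldoa* identifier never exceeded 0.577 CPM, and the other 38 genes passed, among 12289 genes in all.

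The livers came from 20 male C57BL/6 mice, with 1 RNA library per mouse. Before surgery every mouse, controls included, had been made obese by 12 weeks of high-fat feeding (HFD). Sham surgery or Roux-en-Y gastric bypass (RYGB), in which most of the stomach and the upper small intestine are bypassed, was followed by 8 weeks on chow or on HFD. This gave 4 groups of 5 mice: Sham Chow and Sham HFD, and likewise RYGB Chow and RYGB HFD. The contrasts compare the operations on each diet and the diets after each operation. The study reported that Sham HFD mice were heavier than every other group and treated body weight as a confounder. In contrasts that include Sham HFD, and in the interaction, surgery or diet cannot be told apart from body weight. The study describes the transcriptomes as those of the fasted state. Ages were not given in the sources used here, and the labels name no batch.

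Glycolysis breaks glucose down to pyruvate, and gluconeogenesis makes glucose from lactate, amino acids and glycerol. Both routes share a reversible trunk of enzymes and part at a few one-way steps, where hormones and nutrients act. Hepatocytes also store glucose as glycogen, turn fructose into intermediates of the trunk, and pass glucose 6-phosphate into the pentose phosphate pathway, which yields NADPH and ribose units. Release of glucose during fasting is a task of the liver that most other tissues cannot perform.

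Total counts ran from 14604854 to 22537498 per mouse, and the 38 genes held 0.80% to 1.15% of them. On HFD this share was 1.06% ± 0.0422 after sham surgery (mean ± SD, n = 5 mice, as in all groups below) and 0.862% ± 0.059 after bypass, and on chow it was 0.941% ± 0.0753 and 1.00% ± 0.131. All 6 hepatocyte markers examined passed the filter in these livers, and their summed level lay between 65950 and 116900 CPM. A single library stood apart in its markers of skeletal muscle. In Sham HFD replicate 4 the 4 muscle markers summed to 181 CPM, against 0.115 to 1.10 CPM in the other 19 mice, and *Acta1* alone reached 133 CPM there while it was 0 elsewhere. Counts of calls that involve Sham HFD are therefore also given without that mouse, and calls lost without it are named. Counts of whole tissue cannot tell fewer cells of a type from less RNA per cell.

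Per kilobase of exon, the levels of the 38 genes ran from 0.452 to 616 CPM per kilobase. The highest mean over the 4 groups was that of *Fbp1*, the fructose bisphosphatase of gluconeogenesis, followed by *Pck1*, the cytosolic phosphoenolpyruvate carboxykinase, at 487. *Ldha*, lactate dehydrogenase A, came next at 243, ahead of *Khk*, ketohexokinase, at 222. The lowest were *Ppp1r3g*, a glycogen-targeting subunit of protein phosphatase, at 0.846, *Pck2*, the mitochondrial carboxykinase, at 0.684, and *Slc37a1*, a sugar-phosphate exchanger, at 0.452. Across the 20 mice, *Gckr* varied least, by 1.35-fold between the lowest and the highest mouse. *Gapdh* ran from 7.25 to 142 CPM, and its counts are treated separately at the end.

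**Figure D1:**
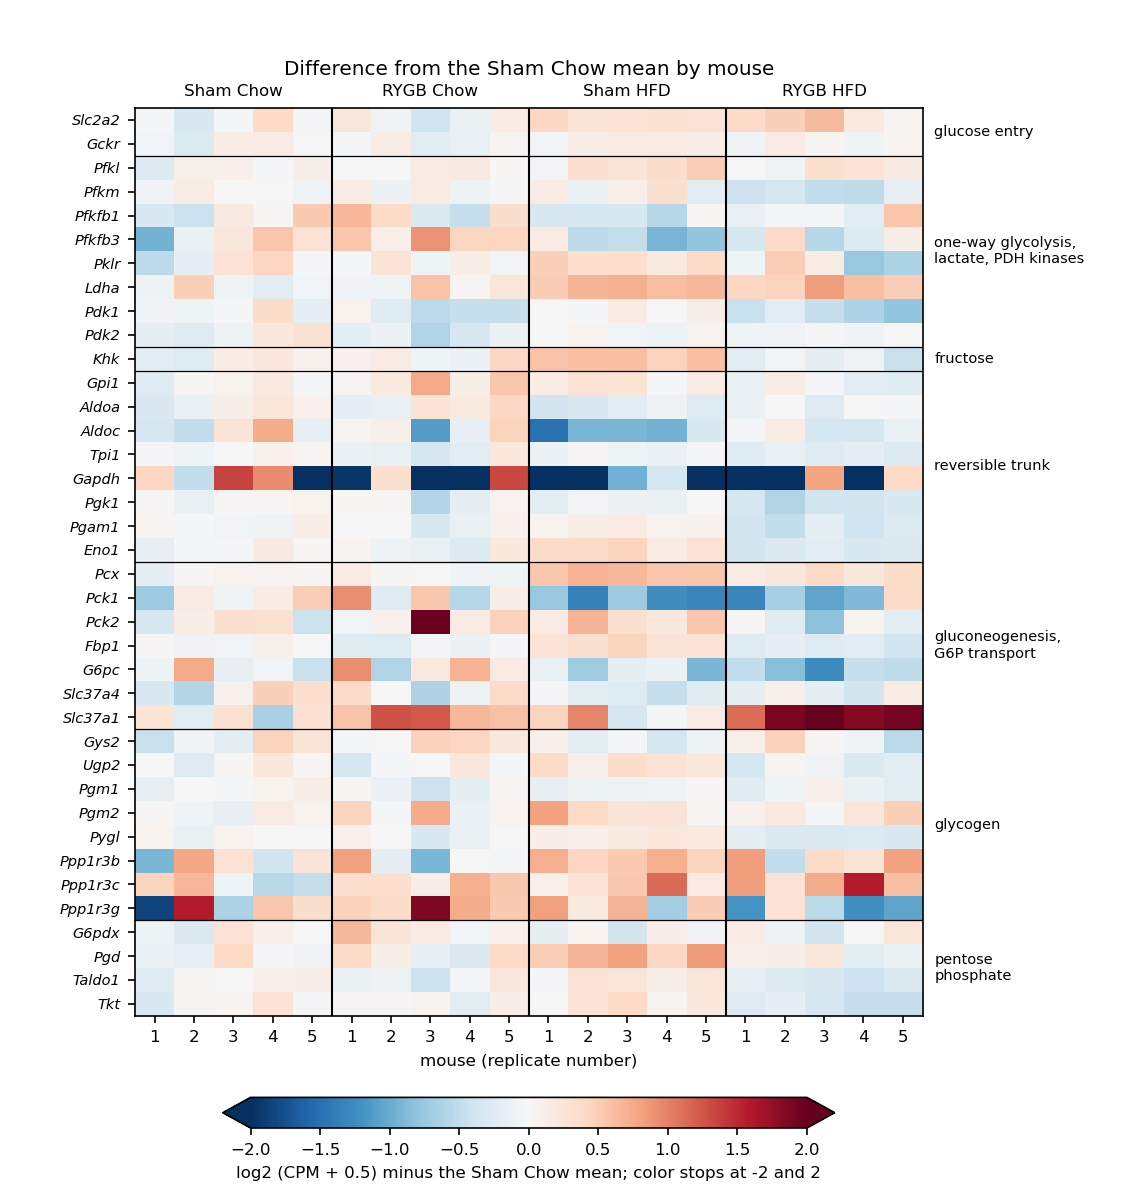
Each row is a gene, ordered by role, and each column a mouse; color gives log2 of CPM + 0.5 less the Sham Chow mean, with red higher and blue lower and the scale stopping at -2 and 2. The 5 Sham HFD mice are red for *Khk*, *Fbp1*, *Pcx* and *Pgd*, the 5 RYGB HFD mice are dark red for *Slc37a1*, and *Gapdh* changes from mouse to mouse within each group.

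Promoter windows are shown for 4 genes on which the comparison of surgery on HFD turns, *Khk*, *Fbp1*, *Pygl* and *Tkt*, and for *G6pc* and *Pck1*, the hormone-controlled genes of gluconeogenesis that changed with diet. Each window runs from 250 bases before to 50 bases after a transcription start in RefSeq (GRCm38.p6), read on the gene's strand: chr5:30921309-30921608 for *Khk*, chr13:62888233-62888532 for *Fbp1* (minus strand), chr12:70227634-70227933 for *Pygl* (minus strand), chr14:30548881-30549180 for *Tkt*, chr11:101367466-101367765 for *G6pc* and chr2:173152823-173153122 for *Pck1*. Capitals mark matches, on either strand, to a cyclic AMP response half-site (CGTCA), an E-box (CACGTG), a forkhead motif (GTAAACA) or an insulin response motif (CAAAACA).
Khk: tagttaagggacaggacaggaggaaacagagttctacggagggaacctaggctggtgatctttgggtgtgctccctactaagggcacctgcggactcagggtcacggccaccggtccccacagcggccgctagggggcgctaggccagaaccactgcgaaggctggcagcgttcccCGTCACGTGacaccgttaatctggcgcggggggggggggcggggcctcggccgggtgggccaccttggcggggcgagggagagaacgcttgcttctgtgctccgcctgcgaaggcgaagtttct
Fbp1: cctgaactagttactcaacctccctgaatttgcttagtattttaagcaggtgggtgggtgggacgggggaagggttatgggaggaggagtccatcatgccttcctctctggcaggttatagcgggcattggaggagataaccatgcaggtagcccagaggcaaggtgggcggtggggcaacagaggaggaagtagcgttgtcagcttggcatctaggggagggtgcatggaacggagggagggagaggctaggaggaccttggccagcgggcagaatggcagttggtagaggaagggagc
Pygl: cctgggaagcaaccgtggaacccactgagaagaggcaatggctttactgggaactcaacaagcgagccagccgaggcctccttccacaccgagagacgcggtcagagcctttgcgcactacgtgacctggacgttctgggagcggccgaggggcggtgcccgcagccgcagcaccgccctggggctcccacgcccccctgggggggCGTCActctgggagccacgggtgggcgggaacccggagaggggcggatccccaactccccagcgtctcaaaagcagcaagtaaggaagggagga
Tkt: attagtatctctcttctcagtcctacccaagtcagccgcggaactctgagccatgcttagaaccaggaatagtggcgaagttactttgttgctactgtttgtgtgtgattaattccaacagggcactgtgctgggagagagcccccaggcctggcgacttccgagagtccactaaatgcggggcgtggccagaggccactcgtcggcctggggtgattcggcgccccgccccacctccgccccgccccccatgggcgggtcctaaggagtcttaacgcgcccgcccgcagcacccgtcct
G6pc: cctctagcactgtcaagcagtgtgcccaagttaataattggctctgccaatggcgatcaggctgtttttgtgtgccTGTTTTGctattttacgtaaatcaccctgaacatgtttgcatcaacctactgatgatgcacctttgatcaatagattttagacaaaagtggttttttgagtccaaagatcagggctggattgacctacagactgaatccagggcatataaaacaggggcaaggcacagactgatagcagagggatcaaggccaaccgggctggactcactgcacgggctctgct
Pck1: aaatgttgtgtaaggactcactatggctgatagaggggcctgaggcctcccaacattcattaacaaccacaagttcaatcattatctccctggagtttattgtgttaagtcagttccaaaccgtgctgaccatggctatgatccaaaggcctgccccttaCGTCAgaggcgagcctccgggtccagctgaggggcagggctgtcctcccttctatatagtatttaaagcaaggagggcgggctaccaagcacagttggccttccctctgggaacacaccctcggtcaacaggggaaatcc
The *Khk* window held a half-site and an E-box that overlap. *Pygl* and *Pck1* held a half-site each, and *G6pc* an insulin response motif on the opposite strand. No letters of these 4 motifs were found in the windows of *Fbp1* and *Tkt*. Of all 32851 windows of this length, 20.8% held the half-site, 7.15% the E-box, 3.65% the forkhead motif and 6.28% the insulin response motif. The 38 genes had 57 windows for 36 of them, of which 12 held the half-site, 7 the E-box, 1 the forkhead motif and 3 the insulin response motif.

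On HFD, bypass was accompanied by lower transcripts of enzymes in every branch of sugar metabolism but the entry of glucose, and by a higher level of a single exchanger. In Sham HFD vs. RYGB HFD, 14 of the 38 genes passed in edgeR's quasi-likelihood test at an adjusted p under 0.05, which is 36.8%, where 16.4% of all tested genes passed. One was higher in RYGB HFD, *Slc37a1*, and 13 were lower, at backgrounds of 8.54% and 7.9%. The median log2 fold change was -0.18 over the 38 genes and 0.0095 over all genes, and 26 of the 38 lay below 0, against 48.6% of all genes. By role, the lower genes were *Khk* of fructose entry, 2 of 8 genes of the one-way steps of glycolysis and its exits, 3 of 8 of the reversible trunk, 2 of 7 of gluconeogenesis, 2 of 8 of glycogen and 3 of 4 of the pentose phosphate pathway. The groups did not overlap for 15 genes, where 14.7% of all genes did not. Of the 15, 1 was higher and 14 lower, at backgrounds of 7.25% and 7.43%. Without Sham HFD replicate 4, 1 gene was higher and 12 lower, and 13.8% of all genes passed.

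**Figure D2:**
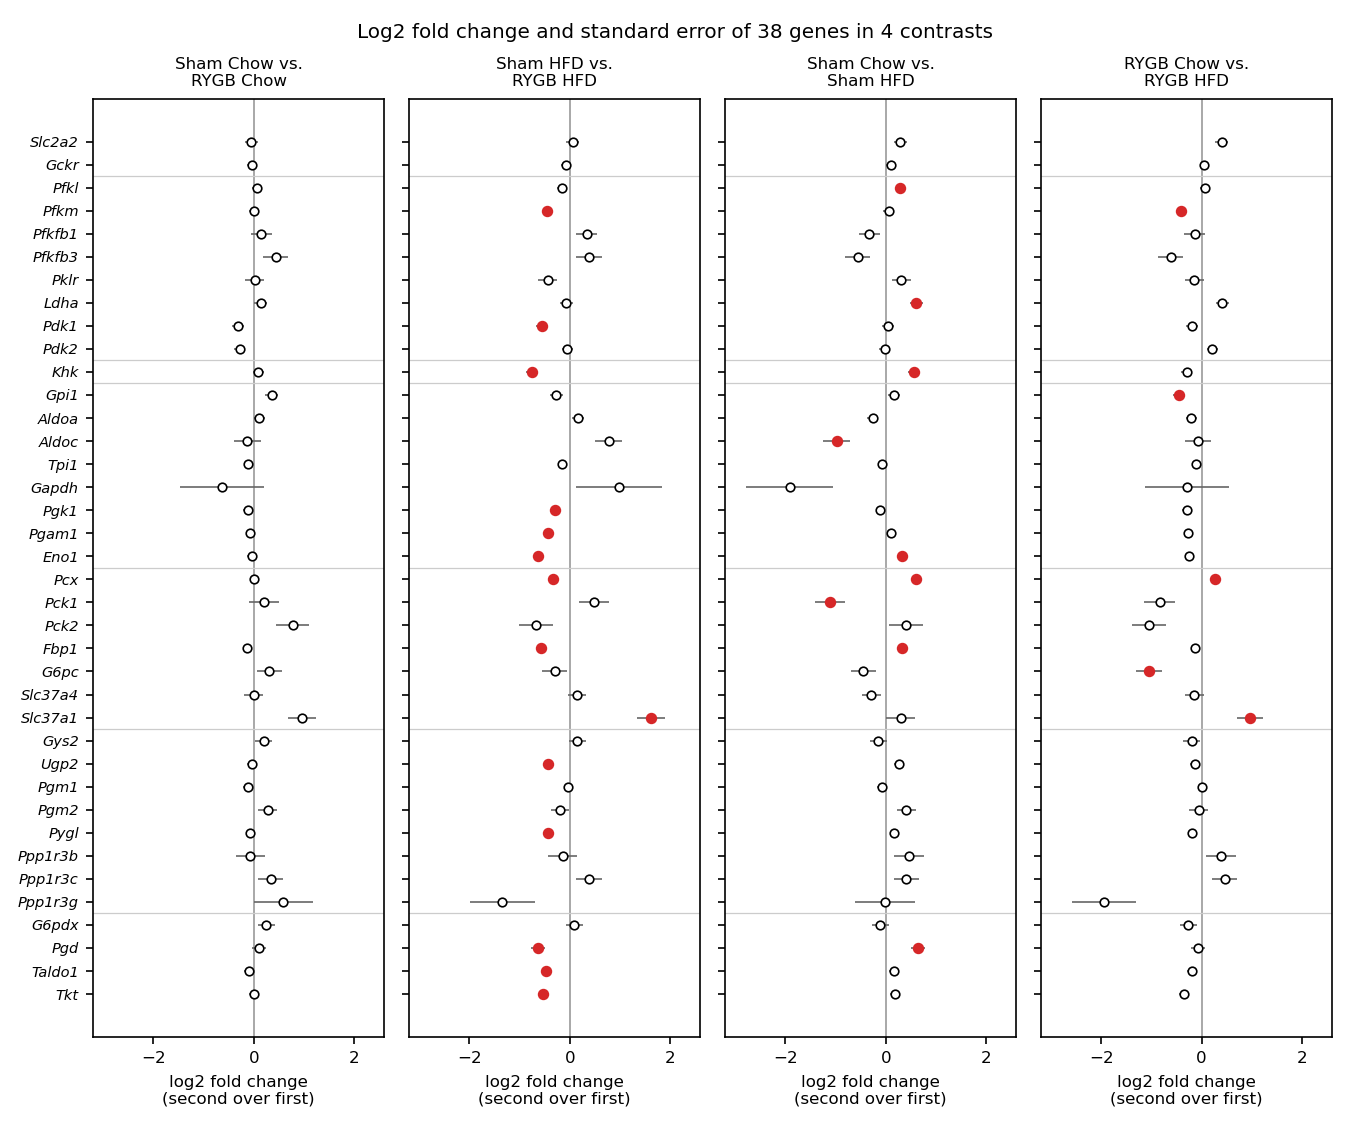
Points give the log2 fold change of each of the 38 genes in 4 contrasts, second group over first, with standard errors as bars; filled red points passed at an adjusted p under 0.05 and open points did not. In Sham HFD vs. RYGB HFD, 13 red points lie left of 0 and 1 right of it, while Sham Chow vs. RYGB Chow holds none.

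Fructose entry showed the largest decrease among the 13 lower genes. *Khk* (ENSMUSG00000029162, chromosome 5 from 30921431 to 30931248) phosphorylates fructose and starts its breakdown. Its level was 535, 546, 544, 488 and 546 CPM in Sham HFD replicates 1 to 5 and 309, 344, 317, 339.7 and 263 CPM in RYGB HFD, so the lowest Sham HFD mouse lay above the highest RYGB HFD mouse. The log2 fold change was -0.76 (SE 0.11, adjusted p = 7.45e-05) in edgeR's quasi-likelihood test, where SE is the standard error, and -0.79 (adjusted p = 0.000172) without Sham HFD replicate 4. Sham Chow had 311, 300.4, 396, 419.6 and 382 CPM and RYGB Chow 379.6, 401, 338, 332 and 480.1 CPM, so that all 5 Sham HFD mice lay above all 15 other mice.

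Among the one-way steps of gluconeogenesis, *Fbp1* and *Pcx* were lower after bypass, and *Pck1* and *G6pc* did not pass. *Fbp1* (ENSMUSG00000069805, chromosome 13 from 62864753 to 62888282), which removes a phosphate from fructose bisphosphate, had 1269, 1317, 1433, 1259 and 1269 CPM in Sham HFD and 883, 918, 876, 897 and 802 CPM in RYGB HFD. The log2 fold change of *Fbp1* was -0.58 (SE 0.067, adjusted p = 9.45e-06) in edgeR's test. The RYGB HFD mice also lay below all 5 Sham Chow mice, at 1068, 1003, 1006, 1129 and 1051 CPM, but not below all RYGB Chow mice, at 888, 882, 1024, 963 and 1032 CPM. *Pcx* (ENSMUSG00000024892, chromosome 19 from 4510472 to 4621752), pyruvate carboxylase, makes oxaloacetate from pyruvate in mitochondria. It had 811, 903, 884, 825 and 824 CPM in Sham HFD and 624, 654, 736, 652 and 720.4 CPM in RYGB HFD, with a log2 fold change of -0.33 (SE 0.071, adjusted p = 0.00311). Unlike *Fbp1*, *Pcx* in RYGB HFD lay above all Sham Chow mice, at 494, 565, 587, 583 and 571 CPM.

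The genes of carboxykinase and glucose 6-phosphatase varied more between mice of 1 group. *Pck1* had 1168, 772, 1192, 832 and 786 CPM in Sham HFD and 786, 1246, 946, 1070.0 and 2565 CPM in RYGB HFD, where replicate 5 lay far above the other 4 and the groups overlapped. Its log2 fold change was 0.48 (SE 0.30, adjusted p = 0.301). *G6pc*, the catalytic subunit that releases free glucose, had 208, 141, 203, 213 and 123 CPM in Sham HFD and 165, 128, 95, 169 and 163 CPM in RYGB HFD, at -0.30 (SE 0.25, adjusted p = 0.448). Neither difference passed in edgeR's test. *Pck2* also did not pass (-0.68, adjusted p = 0.18), although its groups did not overlap, and its counts are uncertain, as described with *Gapdh*.

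*Slc37a1* (ENSMUSG00000024036, chromosome 17 from 31286792 to 31350739), which exchanges glucose 6-phosphate for phosphate across the membrane of the endoplasmic reticulum, was the only one of the 38 genes to rise in this contrast with edgeR. It had 3.59, 5.41, 1.86, 2.46 and 2.89 CPM in Sham HFD and 6.04, 10.7, 12.1, 10.3 and 10.9 CPM in RYGB HFD, a 3.08-fold difference (log2 fold change 1.62, SE 0.27, adjusted p = 0.000367). The groups did not overlap, and the lowest RYGB HFD mouse was replicate 1. Its relative *Slc37a4*, the transporter that works with *G6pc*, had 154 ± 16.6 CPM in Sham HFD and 171 ± 26.3 CPM in RYGB HFD, and the log2 fold change of 0.14 did not pass (adjusted p = 0.646).

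**Figure D3:**
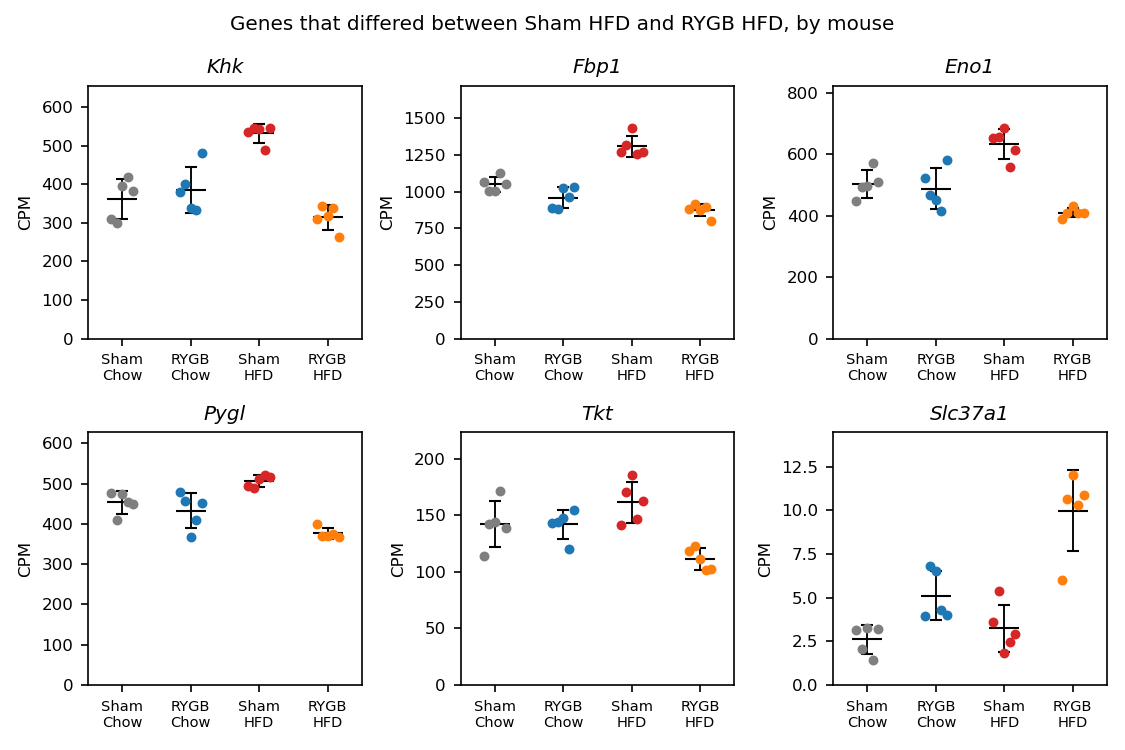
Points are the CPM of single mice for 6 genes in the 4 groups, with the mean as a horizontal line and the SD as a bar, and every vertical axis starts at 0. For *Khk* the 5 Sham HFD mice lie between 488 and 546 CPM, above all others, and for *Slc37a1* the 5 RYGB HFD mice lie between 6.04 and 12.1 CPM, above all Sham HFD mice.

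In the reversible trunk, 3 genes near the pyruvate end fell, and none rose. *Eno1* (ENSMUSG00000063524, chromosome 4 from 150236721 to 150248879), enolase, makes phosphoenolpyruvate. It had 654, 655, 685, 558 and 613 CPM in Sham HFD and 388, 410.0, 430.2, 408 and 408 CPM in RYGB HFD, and the gap between the groups was wider than the spread within either. The log2 fold change of *Eno1* was -0.63 (SE 0.087, adjusted p = 5.25e-05) in edgeR's test. *Pgam1*, phosphoglycerate mutase, the preceding step, fell from 140.1 ± 4.34 to 103 ± 8.83 CPM, at -0.44 (SE 0.076, adjusted p = 0.000473). *Pgk1*, phosphoglycerate kinase, fell from 270.0 ± 14.4 to 219.8 ± 16.6 CPM, at -0.30 (SE 0.099, adjusted p = 0.043). The call for *Pgk1* was the least firm of the 14: it held in 12 of 20 fits that each left out 1 mouse, and the adjusted p reached 0.0994 without RYGB HFD replicate 2, was 0.0659 without Sham HFD replicate 4 and was 0.0712 with no filter on low counts. The other 5 trunk genes, *Gpi1*, *Aldoa*, *Aldoc*, *Tpi1* and *Gapdh*, ran from -0.26 to 0.98 and did not pass.

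At the one-way steps of glycolysis and its exits, *Pfkm* and *Pdk1* were lower after bypass. *Pfkm* encodes the muscle type of phosphofructokinase, and had 21.6, 17.3, 20.6, 24.1 and 16.4 CPM in Sham HFD and 14.2, 14.8, 13.6, 13.4 and 17.1 CPM in RYGB HFD. The highest value belonged to replicate 4, the mouse with muscle transcripts, and the groups overlapped because of replicate 5. The log2 fold change of *Pfkm* was -0.45 (SE 0.10, adjusted p = 0.00471), and -0.38 (adjusted p = 0.0175) without replicate 4. *Pdk1*, a kinase that inactivates pyruvate dehydrogenase, had 123 ± 7.59 and 84.1 ± 12.5 CPM, at -0.55 (SE 0.12, adjusted p = 0.00327). *Pklr*, the liver pyruvate kinase, had 360.0, 326, 328, 294 and 338 CPM in Sham HFD and 244, 365, 285, 152 and 166 CPM in RYGB HFD. The RYGB HFD mice of *Pklr* were spread on both sides of the Sham HFD range, and its log2 fold change of -0.44 (SE 0.19, adjusted p = 0.124) did not pass. *Pfkl*, the liver type of phosphofructokinase, was at -0.15 (adjusted p = 0.349) and *Ldha* at -0.066 (adjusted p = 0.775).

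Entry of glucose was the branch with no call. *Slc2a2*, the transporter GLUT2, had 489.9 ± 22.6 CPM in Sham HFD and 509 ± 80.9 CPM in RYGB HFD (0.056, adjusted p = 0.806). *Gckr*, a regulatory protein of glucose phosphorylation, had 246 ± 15.2 and 232 ± 16.5 CPM (-0.080, adjusted p = 0.577).

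For glycogen, the enzyme of breakdown and the enzyme that supplies its precursor were both lower, and the synthase was not called. *Pygl* (ENSMUSG00000021069, chromosome 12 from 70190811 to 70231488), liver glycogen phosphorylase, had 494, 488, 512, 522 and 516 CPM in Sham HFD and 398, 371, 370.0, 374 and 366 CPM in RYGB HFD. The mice of each group of *Pygl* lay close together and far from the other group, and the log2 fold change was -0.43 (SE 0.070, adjusted p = 0.000264) in edgeR's test. *Ugp2*, which makes the UDP-glucose that glycogen is built from, had 573 ± 44.2 and 424 ± 50.3 CPM, at -0.43 (SE 0.10, adjusted p = 0.00622). *Gys2*, liver glycogen synthase, had 192 ± 23.4 CPM in Sham HFD and 213 ± 51.5 CPM in RYGB HFD, and did not pass (0.15, adjusted p = 0.594). The phosphoglucomutases *Pgm1* and *Pgm2* and the 3 targeting subunits *Ppp1r3b*, *Ppp1r3c* and *Ppp1r3g* did not pass either, at -1.34 to 0.39.

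In the pentose phosphate pathway, 3 of 4 genes fell after bypass, and the enzyme that opens the pathway did not pass. *Tkt* (ENSMUSG00000021957, chromosome 14 from 30548359 to 30574720), transketolase, which returns pentoses to the trunk, had 142, 171, 186, 147 and 163 CPM in Sham HFD and 118, 123, 111, 102 and 103 CPM in RYGB HFD. The groups did not overlap, and the log2 fold change of *Tkt* was -0.54 (SE 0.10, adjusted p = 0.000918) in edgeR's test. *Pgd* (ENSMUSG00000028961, chromosome 4 from 149149991 to 149166771), the dehydrogenase that yields the pathway's second NADPH, had 44.5, 50.8, 56, 42.5 and 57.6 CPM in Sham HFD and 34, 34.7, 37.5, 27.4 and 28.8 CPM in RYGB HFD, at -0.63 (SE 0.14, adjusted p = 0.00382). *Taldo1*, transaldolase, had 127 ± 11.1 and 91.6 ± 5.59 CPM, at -0.47 (SE 0.099, adjusted p = 0.00264). *G6pdx*, the first enzyme, was low in all mice, with 4.52, 5.41, 3.93, 5.81 and 4.96 CPM in Sham HFD and 5.88, 4.84, 3.92, 5.26 and 6.31 CPM in RYGB HFD, and was at 0.091 (SE 0.17, adjusted p = 0.758).

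The exact permutation test on log2 of CPM + 0.5 (two-sided) gave p = 0.00794, the smallest that 5 mice against 5 allow, for 13 of the 14 genes, and p = 0.0159 for *Pfkm*. Groups of 5 that do not overlap always give that smallest p. For these 13 genes it therefore restates the separation, on genes already called from the same mice, and it is not adjusted. Of the 14 calls, 13 held in each of the 8 other settings and in each of the 20 fits without 1 mouse. Sums of cell type markers in the same mice were apart between the groups for some cell types and overlapped for others. The 6 hepatocyte markers summed to 65950 to 78800 CPM in Sham HFD and 92830 to 112000 CPM in RYGB HFD, and no marker of this list was at 0. A sum does not show how each marker moved. The 6 stellate cell markers summed to 257 to 317 and 180.5 to 277 CPM, the 6 lymphocyte markers to 6.55 to 7.54 and 2.55 to 5.55 CPM, and the 10 markers of macrophages to 232.5 to 315 and 209.8 to 366.5 CPM. The 4 gut epithelium markers summed to 174.5 to 188 and 84.1 to 147.5 CPM, which came mainly from *Fabp2*, a fatty acid binding protein, at 153.9 to 170.1 and 65.7 to 131.9 CPM, while *Cdx2* was 0 in all mice and *Vil1* at most 0.293 CPM. The part of these cells in the result was not tested.

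A further 67 genes of the same pathways, outside the 38, were examined as a list, and 53 of them were tested. In Sham HFD vs. RYGB HFD, 2 were higher and 10 lower, with 38 of the 53 below 0 and a median log2 fold change of -0.10. Of all tested genes, 8.54% were higher and 7.9% lower, and 48.6% lay below 0. With Sham HFD replicate 4 left out, 2 were higher and 9 lower, and *Tkfc* lost its call (adjusted p = 0.0733). The smallest p-value was that of *Pdha1*, a subunit of pyruvate dehydrogenase, with 135 ± 1.98 CPM in Sham HFD and 102 ± 3.35 CPM in RYGB HFD (-0.41 (SE 0.064, adjusted p = 0.000194) in edgeR's test). Lower transcripts in RYGB HFD also came from *Gbe1*, the glycogen branching enzyme (-0.59), *Prps2*, which makes phosphoribosyl pyrophosphate (-0.68), *Epm2a*, the glycogen phosphatase laforin (-0.80), and *Galm*, galactose mutarotase (-0.33). *Pdk4*, a kinase of pyruvate dehydrogenase, had 22.2 ± 7 CPM in Sham HFD and 6.04 ± 3.72 CPM in RYGB HFD, at -1.89 (SE 0.46, adjusted p = 0.00655). *Ldhb*, the heart type of lactate dehydrogenase, was at -1.39 and moved with the muscle markers: the highest mouse, at 10.8 CPM, was Sham HFD replicate 4, and without it the value was -0.79 (adjusted p = 0.0486). The higher genes were *H6pd*, a hexose phosphate dehydrogenase of the endoplasmic reticulum, with 477 ± 31.2 and 709 ± 98.9 CPM (0.57 (SE 0.11, adjusted p = 0.00128)), and *Adpgk*, an ADP-dependent sugar kinase (0.43, adjusted p = 0.00162).

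Of 25 regulators of these pathways, all tested, 5 were higher and 1 lower in RYGB HFD, at backgrounds of 8.54% and 7.9%. They are named here with their values known because the count is small. *Mlxipl*, which encodes the sugar-responsive factor ChREBP, was higher at 353 ± 45.1 CPM, against 256 ± 17.4 in Sham HFD (0.46 (SE 0.097, adjusted p = 0.00258) in edgeR's test). The others that rose were *Foxo1* (0.41), *Hnf4a* (0.49), *Creb3l3* (0.30) and the insulin receptor substrate *Irs2* (0.68). *Nfe2l2*, the oxidative stress factor NRF2, was lower (-0.35, adjusted p = 0.0467). Without Sham HFD replicate 4, 4 were higher and 0 lower, since *Irs2* (adjusted p = 0.0566) and *Nfe2l2* (adjusted p = 0.0782) lost their calls. Without RYGB HFD replicate 5, the adjusted p was 0.0879 for *Foxo1* and 0.0533 for *Hnf4a*. The medians over the list were 0.11 for the regulators and 0.0095 for all genes.

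In sham mice, the share of the 38 genes that changed with HFD was near that of all genes. In Sham Chow vs. Sham HFD, 9 of the 38 passed in edgeR's test (23.7%), where 21.6% of all tested genes did. At backgrounds of 10.9% higher and 10.7% lower, the 7 higher genes were *Pcx*, *Khk*, *Fbp1*, *Pgd*, *Ldha*, *Eno1* and *Pfkl*, and the 2 lower ones were *Pck1* and *Aldoc*. This contrast shares the Sham HFD mice with the contrast of surgery on HFD, so values of both stand side by side below and are not independent. Between these groups, 7 genes did not overlap, against 16.5% of all genes. They were 6 higher genes and 1 lower one, at backgrounds of 8.48% and 8.06%. Without Sham HFD replicate 4, 6 were higher and 2 lower, where 17.6% of all genes passed, and *Pfkl* lost its call (adjusted p = 0.0951).

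*Pcx* had 494, 565, 587, 583 and 571 CPM in Sham Chow against 811, 903, 884, 825 and 824 CPM in Sham HFD, and rose by a log2 fold change of 0.60 (SE 0.071, adjusted p = 1.10e-05). *Khk* rose from 362 ± 53.2 to 532 ± 24.7 CPM, at 0.56 (SE 0.11, adjusted p = 0.00117), and on HFD it was at -0.76 after bypass. *Fbp1* rose by 0.32 (adjusted p = 0.00241) with HFD and was at -0.58 after bypass on HFD, and *Eno1* was at 0.33 (adjusted p = 0.0101) and -0.63. *Pgd* rose from 32 ± 5.6 to 50.3 ± 6.72 CPM, at 0.65 (SE 0.14, adjusted p = 0.00281). In 5 genes, *Khk*, *Fbp1*, *Pcx*, *Pgd* and *Eno1*, the level of Sham HFD was thus higher than in Sham Chow and higher than in RYGB HFD.

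*Ldha* (ENSMUSG00000063229, chromosome 7 from 46841475 to 46855627), which interconverts pyruvate and lactate, had 581, 866, 582, 528 and 597 CPM in Sham Chow and 882, 992, 1017, 953 and 982 CPM in Sham HFD. Sham Chow replicate 2 lay close below the lowest Sham HFD mouse, and the log2 fold change was 0.61 (SE 0.13, adjusted p = 0.00281) in edgeR's test. In contrast to the 5 genes above, *Ldha* in RYGB HFD stayed near Sham HFD, at 830.2, 849.8, 1111, 942 and 877 CPM. *Pck1* (ENSMUSG00000027513, chromosome 2 from 173153048 to 173159273) had 1195, 2218, 1850.0, 2187 and 2786 CPM in Sham Chow and 1168, 772, 1192, 832 and 786 CPM in Sham HFD. Every Sham HFD mouse lay below every Sham Chow mouse, the nearest being Sham Chow replicate 1, and *Pck1* fell, with a log2 fold change of -1.11 (SE 0.30, adjusted p = 0.0134). *Aldoc*, the brain type of aldolase, fell from 13.9 ± 5.36 to 6.99 ± 2.24 CPM, at -0.98 (SE 0.27, adjusted p = 0.0141), and its adjusted p reached 0.0499 without Sham Chow replicate 4. *Pfkl* was at 0.29 (SE 0.10, adjusted p = 0.048), held in 5 of 20 fits without 1 mouse, and had an adjusted p of 0.133 without Sham HFD replicate 5.

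**Figure D4:**
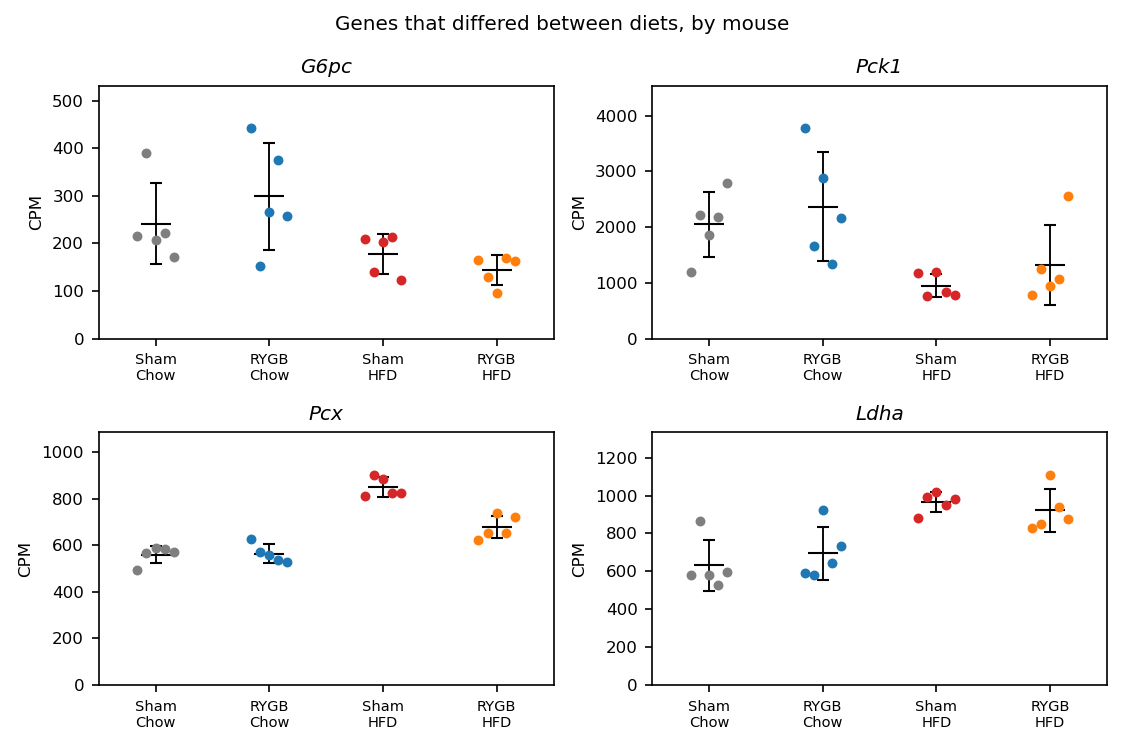
Points are the CPM of single mice for 4 genes that passed between diets, with the mean as a horizontal line and the SD as a bar, and every vertical axis starts at 0. The 5 Sham HFD mice lie between 772 and 1192 CPM for *Pck1*, just below the lowest Sham Chow mouse at 1195 CPM, and between 811 and 903 CPM for *Pcx*, above all others.

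Of the other pathway genes, 13 of 53 were higher and 3 lower in Sham HFD than in Sham Chow, and 11 and 3 without Sham HFD replicate 4. The calls lost without that mouse were those of *Pdk4* (adjusted p = 0.0516 in edgeR's test) and *Pkm* (adjusted p = 0.05001). Among the 25 regulators, 2 were higher and 4 lower, shares near the backgrounds of 10.9% and 10.7%, and they are given by name with their values known: *Srebf1* (0.93) and *Nfe2l2* (0.47) rose, and *Mlxipl* (-0.32), *Hnf4a* (-0.43), *Cebpa* (-0.30) and *Creb3l3* (-0.34) fell. Without Sham HFD replicate 4, *Mlxipl* lost its call (adjusted p = 0.0569), and without Sham Chow replicate 2 the adjusted p was 0.0688 for *Mlxipl* and 0.0673 for *Hnf4a*. The 10 markers of macrophages summed to 96.2 to 255 CPM in Sham Chow and 232.5 to 315 CPM in Sham HFD, and the 6 stellate cell markers to 126 to 207 and 257 to 317 CPM. The 6 lymphocyte markers summed to 3.52 to 5.39 and 6.55 to 7.54 CPM and the 4 gut epithelium markers to 58.9 to 134.9 and 174.5 to 188 CPM. The sum of the 6 hepatocyte markers went the other way, from a median of 88190 to one of 75270 CPM. The part of these cells in the differences was not tested. Scaling by library size alone, without TMM factors, moved the median of all genes in this contrast by 0.13 and gave 16 calls, 14 higher and 2 lower. The share of all genes called at that scale is not given here.

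After bypass, the smallest adjusted p between diets among the 38 genes was that of *G6pc*, glucose 6-phosphatase. In RYGB Chow vs. RYGB HFD, 5 of the 38 genes passed in edgeR's test (13.2%), where 3.65% of all tested genes did. The 2 that were higher on HFD, *Pcx* and *Slc37a1*, stood against a background of 1.99%, and the 3 lower ones, *G6pc*, *Pfkm* and *Gpi1*, against 1.65%. The median log2 fold change was -0.17 over the 38 genes and 0.0048 over all genes. Of the 38, 28 lay below 0, against 49.1% of all genes. This contrast shares the RYGB HFD mice with the contrast of surgery on HFD, and the values of both are not independent. *G6pc* (ENSMUSG00000078650, chromosome 11 from 101367561 to 101377903) had 442, 153, 265, 376 and 258 CPM in RYGB Chow and 165, 128, 95, 169 and 163 CPM in RYGB HFD. The RYGB Chow mice of *G6pc* were widely spread and replicate 2 lay inside the RYGB HFD range. The log2 fold change was -1.05 (SE 0.26, adjusted p = 0.0256), and 16 of 20 fits without 1 mouse kept the call, with an adjusted p of 0.0693 without RYGB HFD replicate 3. In Sham Chow *G6pc* had 216, 390.5, 207, 222 and 170.4 CPM, and the change with diet in sham mice did not pass (-0.44, adjusted p = 0.214). The 2 changes with diet were not shown to differ (interaction -0.61, adjusted p = 0.344). *Pck1* and *Ldha*, which passed between diets in sham mice, did not pass in edgeR's test after bypass. *Pck1* was at -0.84 (SE 0.30, adjusted p = 0.13) and *Ldha* at 0.41 (SE 0.13, adjusted p = 0.0903). Their changes with diet were also not shown to differ between operations (interaction 0.27, adjusted p = 0.768, for *Pck1* and -0.20, adjusted p = 0.578, for *Ldha*).

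The other 4 calls were less firm. *Pfkm* had 19.4 ± 1.91 CPM in RYGB Chow and 14.6 ± 1.5 CPM in RYGB HFD, at -0.41 (SE 0.10, adjusted p = 0.0322), with groups that did not overlap, and lost its call in 6 of 20 fits without 1 mouse (adjusted p = 0.0829 without RYGB HFD replicate 3). *Pcx* was at 0.27 (SE 0.071, adjusted p = 0.0398), and its adjusted p was 0.11 without RYGB HFD replicate 3. *Slc37a1* had 3.98, 6.79, 6.54, 4.3 and 4.02 CPM in RYGB Chow, and its rise of 0.96 (adjusted p = 0.0469) had an adjusted p of 0.112 without the same mouse. *Gpi1*, glucose phosphate isomerase at the head of the trunk, had 127, 141, 208, 134 and 179.6 CPM in RYGB Chow and 112, 137, 121, 106 and 104 CPM in RYGB HFD. RYGB Chow replicate 3 was its highest mouse, and the log2 fold change of -0.45 (SE 0.12, adjusted p = 0.0447) became -0.33 (adjusted p = 0.107) without it. The count of calls ran from 1 to 7 when single mice were left out, with 1 call without RYGB HFD replicate 2, 3 or 4, and none of the 5 calls held in every other setting. A model of these 2 groups only gave 0 calls, and DESeq2 gave 11, 4 higher and 7 lower. With library size alone as the scale, 0 genes were higher and 3 lower. The shares of all genes called under these alternatives are not given here. Of the 38 genes, 3 did not overlap between the groups, against 5.05% of all genes, 1 of them higher and 2 lower at backgrounds of 2.64% and 2.41%.

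Of the other pathway genes, 1 of 53 fell and 0 rose in this contrast, at backgrounds of 1.65% and 1.99%. The gene that fell was *Gsk3a*, a kinase of glycogen synthase (-0.25, adjusted p = 0.0367). Among the regulators, 1 of 25 rose, at the same background of 1.99%. It was *Srebf1* (0.80, adjusted p = 0.0342), a factor that drives lipid synthesis. Both names were picked with their values known, and without RYGB HFD replicate 3 the adjusted p was 0.105 for *Gsk3a* and 0.109 for *Srebf1*.

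The test of the surgery by diet interaction asks whether the change with diet differed between operations. It called 7 of the 38 genes in edgeR's test (18.4%), where 5.06% of all tested genes passed, and in all 7 the change with HFD was lower after bypass than after sham surgery, at backgrounds of 2.58% lower and 2.48% higher. *Khk* was at -0.85 (SE 0.15, adjusted p = 0.00308): on HFD its level was higher by 0.56 in sham mice, while it was at -0.30 in bypassed mice, which did not pass. *Eno1* was at -0.59 (SE 0.12, adjusted p = 0.00847) and *Fbp1* at -0.45 (SE 0.095, adjusted p = 0.00963). These 3 calls held in each of the 20 fits without 1 mouse and in each of the 7 other settings. *Tkt* was at -0.54 (SE 0.14, adjusted p = 0.0318), *Pgd* at -0.73 (SE 0.20, adjusted p = 0.0368), *Pygl* at -0.36 (SE 0.099, adjusted p = 0.0362) and *Gpi1* at -0.62 (SE 0.17, adjusted p = 0.0417). The adjusted p of these 4 reached 0.0658 for *Tkt* and 0.0781 for *Gpi1* without Sham HFD replicate 3, 0.0738 for *Pgd* without Sham HFD replicate 5 and 0.067 for *Pygl* without RYGB Chow replicate 1. Without Sham HFD replicate 4, 6 genes were called, where 3.68% of all genes passed, and *Pygl* was the one lost (adjusted p = 0.0637). The fewest calls, 3, came without Sham HFD replicate 3 and without RYGB HFD replicate 4. Of the other 53 pathway genes, 5 passed, all with a lower change after bypass, and 4 of them are given with their values known: *Hk3* (-1.43), *Pdk4* (-2.23), *Pdha1* (-0.40) and *Gbe1* (-0.62). When Sham HFD replicate 4 was left out, 4 of the 53 passed, and *Pdk4* lost its call (adjusted p = 0.0852), which held in 4 of 20 fits without 1 mouse. Of the 25 regulators, 0 passed.

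On chow, no gene of the 38 passed between operations. In Sham Chow vs. RYGB Chow, edgeR called 0, against 0.057% of all tested genes, and DESeq2 and limma-voom also called 0. At an unadjusted p under 0.05 there were 5, where 10.8% of all genes passed that limit. The smallest adjusted p was that of *Slc37a1* (0.95 (SE 0.28, adjusted p = 0.227)). Its mice had 3.14, 2.07, 3.24, 1.43 and 3.21 CPM in Sham Chow and 3.98, 6.79, 6.54, 4.3 and 4.02 CPM in RYGB Chow, so that it was the 1 gene of the 38 whose groups did not overlap (1.33% of all genes, and 0.74% in this direction; exact permutation test, two-sided p = 0.00794). The rest of the 5, given with their values known, were *Gpi1* at 0.355, *Pck2* at 0.77, *Pdk1* at -0.32 and *Pdk2* at -0.28. *Pdk1* and *Slc37a1* passed between operations on HFD. Their differences between operations were not shown to depend on diet (interaction -0.23, adjusted p = 0.469, and 0.67, adjusted p = 0.343, in edgeR's test). *Khk* was at 0.094 (SE 0.11), *Fbp1* at -0.13 (SE 0.067) and *Pygl* at -0.065 (SE 0.070). Of the other pathway genes, 1 of 53 passed, *Hk3*, a hexokinase found in white blood cells, with 1.99 ± 0.728 CPM in Sham Chow and 5.46 ± 2.18 CPM in RYGB Chow (1.43 (SE 0.25, adjusted p = 0.045) in edgeR's test), named after its value was seen. This call held in 7 of 20 fits without 1 mouse, and the adjusted p of *Hk3* reached 0.15 without Sham Chow replicate 4 and was 0.0725 without Sham HFD replicate 4. The 10 markers of macrophages summed to 96.2 to 255 CPM in Sham Chow and 194.6 to 480 CPM in RYGB Chow, and their part in this difference was not tested.

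Bypassed mice on HFD were also set beside the sham-operated mice on chow, as a description with no test. For 9 of the 38 genes all RYGB HFD mice lay below all Sham Chow mice, and for 2 above, where 3.84% and 3.4% of all genes did so, 7.24% together. The 9 were *Fbp1*, *G6pc*, *Pygl*, *Pdk1*, *Pfkm*, *Eno1*, *Pgam1*, *Pgk1* and *Tpi1*, of which 4 belong to the reversible trunk, and the 2 were *Pcx* and *Slc37a1*. *Khk* was not among them: its RYGB HFD mice, at 263 to 344 CPM, overlapped the range of 300.4 to 419.6 CPM in Sham Chow.

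Over the 4 contrasts and the interaction, 20 of the 38 genes passed at least once and 18 did not. The 18 included the control points *Slc2a2*, *Gckr*, *Pklr*, *Gys2* and *G6pdx*. On chow, *Slc2a2* had 401 ± 75.8 CPM in sham and 387 ± 64.7 CPM in bypassed mice, *Gckr* had 229.8 ± 27.5 and 224 ± 22.7 CPM, *Pklr* 266 ± 66.9 and 268 ± 29.6 CPM, and *Gys2* 213 ± 53.2 and 245 ± 38.6 CPM. Their values on HFD are given above, and none of these genes passed in any contrast. *G6pdx* lay between 3.92 and 8.55 CPM in the 20 mice.

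*Gapdh*, the glyceraldehyde phosphate dehydrogenase that often serves as a reference transcript, could not be read as a level here. On chow it had 73.7, 39.5, 142, 107 and 11.6 CPM in sham mice and 14.1, 69.3, 8.02, 9.38 and 141 CPM after bypass, and on HFD 7.25, 13, 28.3, 43.5 and 7.37 CPM and 8.6, 10.3, 95.9, 8.4 and 73.6 CPM. Mice of the same group differed by up to 17.6-fold, every pair of groups overlapped, and no contrast passed. The annotation holds 79 near-identical copies of its transcript (at least 95% identity over at least 150 bases), of which 75 had a count and 5 passed the filter. The counts of these copies summed to 33.0 to 76.2 CPM per mouse, a narrower range than that of *Gapdh* itself. How reads that match several genes were treated is not given in the sources used here, so counts of *Gapdh* are uncertain. *Eno1* has 3 such copies, of which the largest, *Eno1b*, reached 17.2 CPM, against at least 388 CPM of *Eno1*. *Pck2* shares a stretch of 158 to 185 bases of its transcript of 4625 bases with 14 other genes, whose counts summed to 317 to 586 CPM, against 2.19 to 18.0 CPM of *Pck2*, so its low counts are also uncertain. *Pklr* shares 711 bases with *Hcn3*, which reached 61.2 CPM against at least 152 CPM of *Pklr*. *Pgk1* and *Ldha* share up to 1255 and 1000 bases with 4 genes each. *Gpi1*, *Pgam1*, *Slc37a1* and *Tpi1* share 1046, 765, 475 and 310 bases with 1 gene each. *Eno1* shares up to 1736 of its 2027 bases. Low counts of the sharing genes do not show how shared reads were treated, so the effect on these genes is also uncertain.

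**Figure D5:**
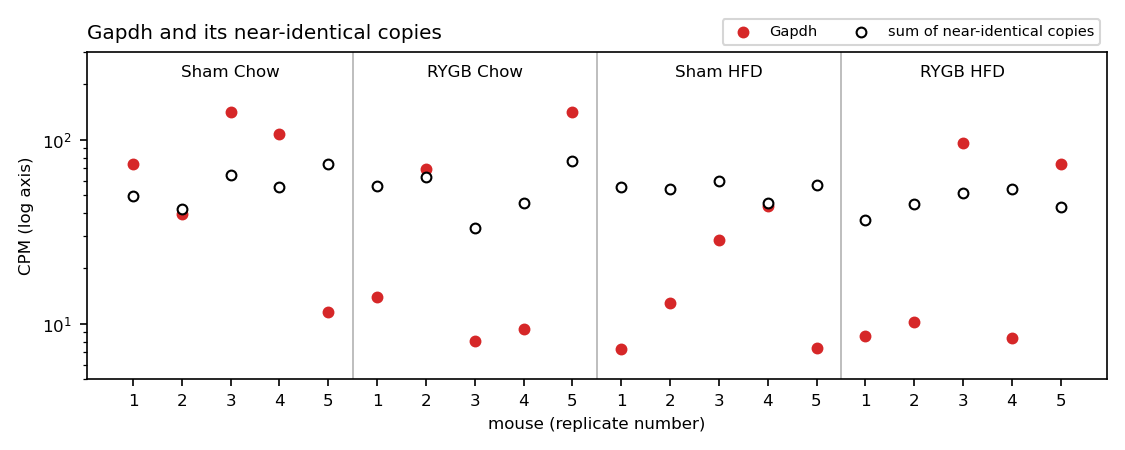
Red points give the CPM of *Gapdh* and open points the summed CPM of its 79 near-identical copies in each of the 20 mice, on a log axis. *Gapdh* ranges from 7.25 to 142 CPM with low and high mice in every group, while the sum of the copies stays between 33.0 and 76.2 CPM.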

How the data were processed

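Liver RNA of 20 mice was sequenced after selection of poly-A RNA. Per the labels, the authors used Trimmomatic 0.36 for trimming and HISAT2 2.1.0 for alignment to mm10, and deposited raw counts per Ensembl gene made with featureCounts 1.5.0-p3. The annotation release, the strand setting and the treatment of reads that match several genes are not given in the sources used here. Symbols and positions came from GENCODE M21 (54409 genes matched), and promoter windows from RefSeq (GRCm38.p6).

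Genes that reached a CPM of 2 in 3 or more mice entered edgeR 4.0.16 in R 4.3.3 (quasi-likelihood, TMM factors from 0.916 to 1.13, biological coefficient of variation 0.181) in 1 model of all mice. Its two-sided p-values were adjusted after Benjamini and Hochberg across the 12289 tested genes. A gene was called at an adjusted p under 0.05. CPM values were computed here from the deposited counts with the TMM factors. Single genes were compared by an exact permutation test over 252 splits on log2 of CPM + 0.5. Depth of 14604854 or more counts per mouse limits precision for genes of a few CPM. The procedure was tested on simulated data. Near-identical copies were found by aligning transcripts to the annotation.

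Genes are named if they passed in any contrast or in the interaction, or if they are control points of the pathway. Other pathway genes are named if they passed between Sham HFD and RYGB HFD, at most the 10 with the smallest p-values. Some genes that this rule names are not reported here. The genes and lists were chosen with earlier results of these data known. Alternatives were limma-voom (limma 3.58.1), DESeq2 1.42.0, scaling by RLE factors or by library size only, filters at a CPM of 5 or none, models of 2 groups, the replicate number as a block, each mouse left out and a pseudocount of 2. Each mouse gave 1 library, and p-values measure the spread between these mice. Of the columns, 0 were identical to another.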

Additional observations from a re-analysis of the deposited data

Results flagged for a closer look

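In 14 of 152 sets of 5 mice (38 genes in 4 groups), 1 mouse lay apart from the other 4 by Dixon's test, where chance flags about 1 in 20 sets. In Sham Chow these were *G6pc* at 390.5 CPM and *Ldha* at 866 CPM, both high, and *Pgk1* at 261 CPM, low, all in replicate 2. Further Sham Chow mice were *Pcx* at 493.5 CPM in replicate 1, *Pdk1* at 153 CPM in replicate 4 and *Pgd* at 41.9 CPM in replicate 3. In RYGB Chow, replicate 3 was high for *Pck2*, at 18.0 CPM against 4.09 to 6.06 in the other mice, and for *Ppp1r3g*, at 7.31 CPM. In Sham HFD, replicate 1 was low for *Gckr* (219 CPM) and high for *Slc2a2* (529 CPM), and replicate 4, the mouse with muscle transcripts, was low for *Khk* (488 CPM). In RYGB HFD, replicate 5 was high for *Pck1*, at 2565 CPM against 786 to 1246 in the other mice, and for *Pfkfb1* (60.0 CPM), and replicate 1 was high for *Pygl* (398 CPM).

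The change with HFD differed between operations for 7 genes in edgeR's quasi-likelihood test of the interaction. The differences, RYGB less sham on the log2 scale, were -0.85 for *Khk*, -0.73 for *Pgd*, -0.62 for *Gpi1*, -0.59 for *Eno1*, -0.54 for *Tkt*, -0.45 for *Fbp1* and -0.36 for *Pygl*.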

How the results depend on the processing

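No call among the 38 genes reversed its direction under any alternative. Of 35 calls, 24 held in every other setting and without each mouse in turn: 13 of 14 in Sham HFD vs. RYGB HFD, 8 of 9 in Sham Chow vs. Sham HFD, 3 of 7 in the interaction and 0 of 5 in RYGB Chow vs. RYGB HFD. With DESeq2 there were 11 calls in RYGB Chow vs. RYGB HFD (5 as reported) and 11 in the interaction (7 as reported). With library size only, which moved the median of all genes by 0.13 in Sham Chow vs. Sham HFD and by -0.14 in the interaction, there were 16 calls in Sham Chow vs. Sham HFD (9 as reported), 3 in RYGB Chow vs. RYGB HFD and 12 in the interaction. In RYGB Chow vs. RYGB HFD, no filter gave 2 calls and a model of the 2 groups 0. The shares of all genes called under these settings are not given here. The causes were not tested. Leaving out 1 mouse at a time gave 13 to 16 calls in Sham HFD vs. RYGB HFD, 8 to 10 in Sham Chow vs. Sham HFD, 1 to 7 in RYGB Chow vs. RYGB HFD, 3 to 8 in the interaction and 0 in Sham Chow vs. RYGB Chow. Same-numbered mice of different groups showed weak correlations (30 pairs, r from -0.26 to 0.16, 5 over 0.1). Pairs with other numbers were alike (120 pairs, r from -0.24 to 0.35, 20 over 0.1). The number was therefore not used in the main model, though this check cannot exclude a shared order of processing or cage. With the replicate number as a block there were 14 calls for surgery on HFD and 0 on chow, 9 for diet in sham mice, 2 for diet after bypass and 6 for the interaction. A pseudocount of 2 in place of 0.5 moved 0 of 152 exact permutation tests across 0.05.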
